A study of Oryctolagus cuniculus with 17 samples.

Results

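Within the hyperoxia arm of a preterm rabbit study, lungs taken on day 7 (HT7) were compared with lungs taken on day 3 (HT3), to describe the genes that change as exposure lengthens. The comparison covered the 3 HT7 and the 3 HT3 samples of 17 samples in all, and every locus of the count table that passed a filter on low counts (12628 of 13313) was tested. All pups were New Zealand White rabbits delivered by cesarean section on day 28 of gestation (term 31 days), fed a milk replacer, and housed in incubators. HT3 and HT7 pups breathed 95% oxygen for 3 or 7 days, which is also their postnatal age. The other groups were HT5 (95% oxygen for 5 days, 2 samples) and the normoxia groups NT3, NT5 and NT7 (21% oxygen for 3, 5 or 7 days, 3 samples each). Poly(A) RNA came from whole lung homogenates (right lung, by the labels), so a lower level of a transcript in fewer cells of a type and in less RNA per cell cannot be told apart. Neither the labels nor the methods say which litter each pup came from, and p-values therefore measure only the spread between these samples.

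Oxygen at high concentration generates reactive oxygen species in the lung, where the thin alveolar type 1 cells and the capillary endothelium form the gas exchange surface. Damage to DNA and proteins is met by the p53 response, which arrests the cell cycle, by NRF2, which induces antioxidant enzymes, and by ATF4, which adjusts amino acid supply. In the saccular stage of lung development, vascular growth signals and elastic fibers accompany the subdivision of airspaces, and surviving alveolar type 2 cells can pass through a transitional state on the way to type 1 cells.

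Totals of all loci were similar in both groups, from 15491976 to 17138343 counts in HT3 and from 14283849 to 17107271 in HT7, and from 13123731 to 18111086 over all 17 samples. The lung origin was checked with SFTPC, the surfactant protein of type 2 cells, at 4424 to 13460 CPM (counts scaled to the size of each library), and with PECAM1, an endothelial adhesion molecule, at 368 to 911 CPM. HT7 replicate 2 stood apart from the other HT7 samples. It lay nearest to HT3 in 119 of the 173 upregulated and in 227 of the 279 downregulated genes described below. HT3 replicate 2 carried skeletal muscle transcripts, with a summed level of 508 CPM for 9 muscle loci against 95.3 and 135 CPM in the other HT3 samples.

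Genes were tested with the quasi-likelihood test of edgeR with Benjamini-Hochberg adjustment over all loci. A gene is called a differentially expressed gene (DEG) at a log2FC beyond 2 in either direction with an adjusted p-value under 0.01, and is said to rise or fall at an adjusted p-value under 0.01 whatever its fold. Falls and rises of single genes are given on the log2 scale. From day 3 to day 7 of hyperoxia, 173 DEGs were upregulated (1.37% of loci tested) and 279 were downregulated (2.21%). With no minimum on the fold, 1692 loci rose (13.4%) and 1982 fell (15.7%), while the median log2FC of all loci was 0.01. These shares are the ones to set beside the counts of each list below. The median log2FC was 2.71 in upregulated and -2.50 in downregulated DEGs. In 15 upregulated and 23 downregulated DEGs one group had no sample above 3 counts, which is taken as the floor. With these at the bound that 3 counts in every sample allow, the medians were 2.63 and -2.43. Leaving out 1 sample at a time gave between 344 and 654 DEGs in place of 452, the highest number without HT7 replicate 2 and the lowest without HT7 replicate 1.

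**Figure D1:**
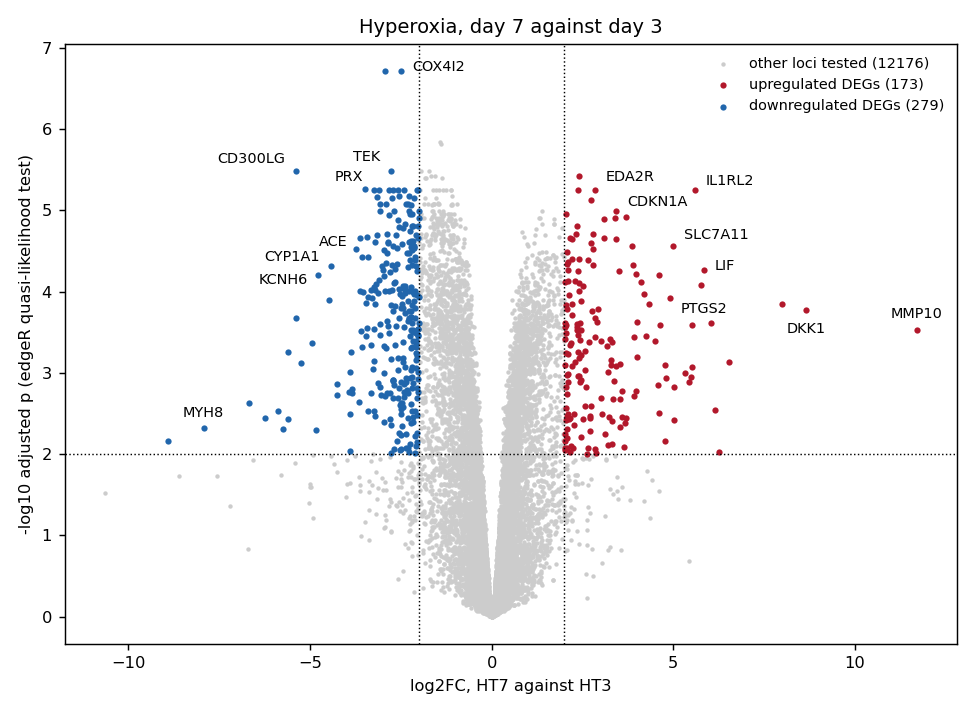
Volcano plot of the 12628 loci tested, with the log2FC of HT7 against HT3 on the x axis and the -log10 adjusted p-value of edgeR on the y axis. Dotted lines mark the DEG thresholds, and the 279 downregulated DEGs on the left outnumber the 173 upregulated DEGs on the right.

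The largest rise was that of MMP10, a matrix metalloproteinase (stromelysin 2) encoded at 113775354 to 113786608 on chromosome 1 of OryCun2.0. Its level was 0, 0 and 0.194 CPM in the 3 HT3 samples and 301, 30.0 and 387 CPM in the 3 HT7 samples, with 6.83 and 23.6 CPM in HT5 and 0 CPM in each sample of NT3 and NT7. HT3 was at the floor, so that the log2FC was at least 10.29. LIF, a cytokine of the interleukin 6 family, stood at 3.81, 2.21 and 6.97 CPM in HT3 and at 500, 48.0 and 192 CPM in HT7 (log2FC 5.83 ± 0.76 SE, adjusted p = 5.4e-05). PTGS2, the inducible cyclooxygenase of prostaglandin synthesis (chromosome 16, 83706643 to 83713353), stood at 12.5, 16.2 and 34.8 CPM in HT3 and at 1013, 112 and 766 CPM in HT7 (log2FC 4.89 ± 0.71, adjusted p = 0.00012). In all 3 genes every HT7 sample was above every HT3 sample, and HT7 replicate 2 was the lowest of the HT7 samples.

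ADAMTS4, which cleaves aggrecan and versican, changed from 2.04, 3.31 and 3.55 CPM to 358, 25.0 and 104 CPM (log2FC 5.77 ± 0.80, adjusted p = 8.3e-05). SLC7A11, the cystine importer that feeds glutathione synthesis, changed from 2.23, 6.57 and 4.91 CPM to 82.6, 136 and 218 CPM (log2FC 4.99 ± 0.59, adjusted p = 2.8e-05). For SLC7A11 the lowest HT7 sample was replicate 1, unlike in the genes above. IL1RL2, the receptor of interleukin 36, had the smallest standard error among the 15 largest rises, with 0.131, 0.184 and 0.258 CPM in HT3 and 17.3, 5.13 and 6.59 CPM in HT7 (log2FC 5.60 ± 0.51, adjusted p = 5.7e-06).

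IL1RL2 was near the floor in HT3, with 2, 3 and 4 counts. Some of the other largest rises also began at or near the floor. DKK1, a secreted WNT antagonist, had 0 to 0.194 CPM in HT3 and 5.93 to 94.3 CPM in HT7, a log2FC of at least 7.61. MMP10, DKK1, CRHBP, IVL and CSF3 were not DEGs by limma-voom, where their adjusted p-values were between 0.0161 and 0.0426. CRHBP, which binds corticotropin-releasing hormone, had a log2FC of at least 6.56, and IVL, a component of the cornified envelope of squamous epithelium, one of at least 5.79. CSF3, the growth factor of neutrophils, had 0.0657, 0.491 and 0.839 CPM in HT3 and 58.0, 2.00 and 33.2 CPM in HT7 (log2FC 6.03 ± 0.98, adjusted p = 0.00024). CA12, a membrane carbonic anhydrase, PYY, an enteroendocrine peptide, STEAP2, a metalloreductase, and SNAI1, a repressor of epithelial genes, had log2FC of 5.52, 4.76, 4.61 and 4.48. The adjusted p-value of PYY was 0.007, and PYY was no longer a DEG in 4 of the 6 fits that left out 1 sample (HT3 replicate 1 or 2, HT7 replicate 2 or 3). Those 6 fits gave PYY log2FC from 4.24 to 7.21. PYY was also not a DEG by limma-voom or in the fits of the 6 samples of HT3 and HT7 or the 8 hyperoxia samples alone.

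**Figure D2:**
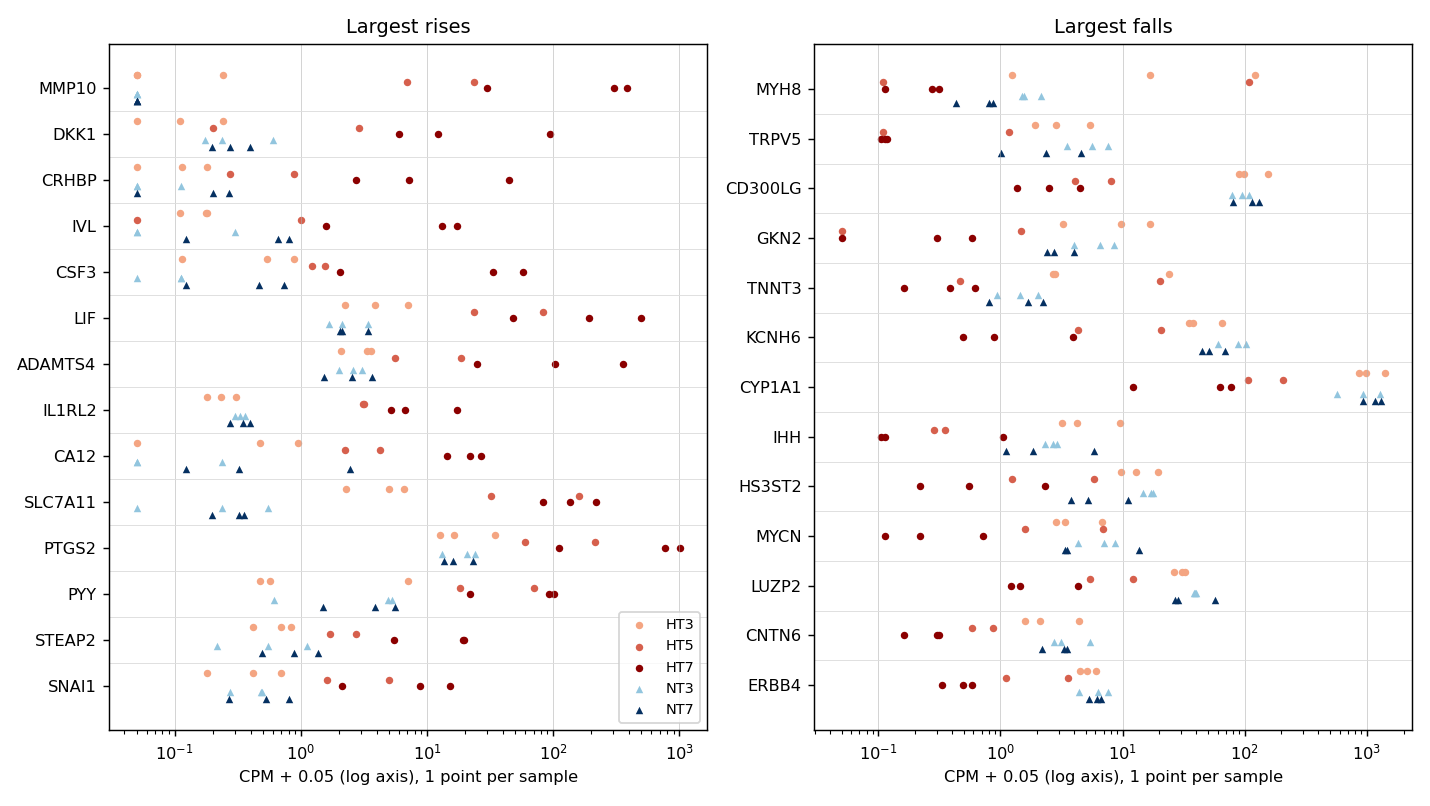
Level of 14 genes among the 15 largest rises and 13 among the 15 largest falls in each sample (CPM + 0.05, log axis), with circles for hyperoxia (HT3, HT5 and HT7) and triangles for normoxia (NT3 and NT7). Genes were chosen so that HT7 and HT3 do not overlap, and the HT5 circles lie between or near them.

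Among the largest falls, CD300LG, a receptor of capillary endothelium (chromosome 19, 44263125 to 44276609), had 98.1, 155 and 90.6 CPM in HT3 and 1.32, 4.46 and 2.46 CPM in HT7 (log2FC -5.39 ± 0.41, adjusted p = 3.2e-06). CYP1A1, a monooxygenase induced by the aryl hydrocarbon receptor, had 1417, 871 and 976 CPM in HT3 and 12.2, 62.4 and 77.8 CPM in HT7 (log2FC -4.42 ± 0.57, adjusted p = 4.9e-05). KCNH6, a voltage-gated potassium channel gene, had 65.2, 34.7 and 37.9 CPM in HT3 and 0.441, 3.86 and 0.838 CPM in HT7 (log2FC -4.77 ± 0.64, adjusted p = 6.2e-05). In each of these genes all HT7 samples were below all HT3 samples. CD300LG and CYP1A1 were already low in HT5, at 7.96 and 4.04 CPM and at 205 and 106 CPM.

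ERBB4, a receptor of neuregulins, had 4.40, 6.02 and 5.10 CPM in HT3 and 0.441, 0.533 and 0.279 CPM in HT7 (log2FC -3.62 ± 0.42, adjusted p = 2.2e-05). IHH, the Indian hedgehog ligand, MYCN, a transcription factor of progenitor growth, and GKN2, a secreted gastrokine, fell by 3.93, 3.85 and 5.25 on the log2 scale. TRPV5, a calcium channel gene, ended at the floor in HT7, and its log2FC was -4.18 or lower. HS3ST2, LUZP2 and CNTN6 fell by 3.87, 3.74 and 3.62. MYCN was no longer a DEG without HT7 replicate 1, without HT7 replicate 3 or by limma-voom. In the fit of the 8 hyperoxia samples alone IHH, GKN2 and HS3ST2 were no longer DEGs, nor was IHH in that of the 6 samples alone, and the log2FC of IHH was -6.38 without HT7 replicate 2.

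Among the 15 largest falls, MYH8 and TNNT3 encode proteins of skeletal muscle. MYH8, a perinatal myosin heavy chain, had 1.18, 123 and 16.8 CPM in HT3 and 0.0631, 0.266 and 0.223 CPM in HT7, and TNNT3, fast troponin T, had 2.76, 23.9 and 2.65 CPM in HT3 and 0.568, 0.333 and 0.112 CPM in HT7. HT3 replicate 2 held most of both transcripts. Of the 9 skeletal muscle loci tested, 3 fell and 0 rose, and 0 fell without HT3 replicate 2 or without any 1 of the HT7 samples, 3 without HT3 replicate 3 and 6 without HT3 replicate 1. The summed level of the 9 loci was 95.3, 508 and 135 CPM in HT3, 81.3, 71.8 and 69.7 CPM in HT7, and 441 CPM in HT5 replicate 1.

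Of 39 loci of p53 targets, 20 rose (51.3%), 2 fell (5.13%) and 17 did not pass the test, against 13.4% and 15.7% of all loci. In this list 11 were upregulated DEGs and the median log2FC was 1.07 against 0.01 for all loci. CDKN1A, the cyclin-dependent kinase inhibitor p21 (chromosome 12, 26615148 to 26621177), had 117, 108 and 175 CPM in HT3 and 1106, 1165 and 2038 CPM in HT7 (log2FC 3.43 ± 0.34, adjusted p = 1e-05). EDA2R, a receptor of the tumor necrosis factor receptor family, had 19.6, 21.2 and 26.5 CPM in HT3 and 142, 123 and 214 CPM in HT7 (log2FC 2.83 ± 0.25, adjusted p = 5.7e-06). GADD45A, a stress sensor that slows the cell cycle, had 55.4, 45.5 and 71.1 CPM in HT3 and 658, 287 and 532 CPM in HT7 (log2FC 3.10 ± 0.33, adjusted p = 1.3e-05). In all 3 genes the lowest HT7 sample was above the highest HT3 sample. PHLDA3, an inhibitor of AKT signaling, MDM2, the ubiquitin ligase of p53, and BTG2, an antiproliferative factor, had log2FC of 2.80, 2.10 and 2.38, and BAX, a mediator of apoptosis, had 1.30. The members that fell were SESN1 and CCNG2, with log2FC of -0.78 and -0.97.

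Of 53 loci of DNA replication and mitosis, 16 rose and 0 fell by edgeR (1 fell at an unadjusted p-value under 0.05, and 0 by DESeq2), 4 were DEGs, and the median log2FC was 1.08. CCNB1, the mitotic cyclin, had 4.99, 5.65 and 3.68 CPM in HT3 and 19.3, 30.7 and 26.1 CPM in HT7 (log2FC 2.41 ± 0.45, adjusted p = 0.00065), and UBE2C, which tags mitotic cyclins for degradation, had a log2FC of 2.44. In normoxia the median of the list was 0.64, and 0 of its loci differed in their change between the arms by edgeR or by DESeq2, with 9 at an unadjusted p-value under 0.05 by edgeR. Of all loci, 2.31% had a higher and 4.7% a lower change in hyperoxia than in normoxia by edgeR. CCNB1 stood at 12.5, 8.87 and 11.9 CPM in NT3 and at 9.63, 22.2 and 39.4 CPM in NT7, so that HT3 held less of it than NT3. DESeq2 called 27 rising loci. The number of DEGs was 8 without HT7 replicate 1, 6 without HT7 replicate 3 and 2 without HT7 replicate 2. The number that rose by edgeR was 7 to 10 when HT3 replicate 1, 2 or 3 or HT7 replicate 2 or 3 was left out, and 16 without HT7 replicate 1.

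Ribosome biogenesis had the largest share of rising loci of the lists examined. Of 73 loci, 54 rose and 1 fell, yet 1 was a DEG. The median log2FC was 0.93, and the values ran from -1.27 to 2.43. In normoxia the median was 0.05. RPP25, a subunit of RNase P and MRP, had 0.263, 0.307 and 0.258 CPM in HT3 and 2.40, 0.733 and 1.45 CPM in HT7 (log2FC 2.43 ± 0.50, adjusted p = 0.0013). It was no longer a DEG without HT7 replicate 1 or in the fits of the 6 or the 8 hyperoxia samples alone. BYSL, RRP12, MYBBP1A and NOP2, factors of ribosome assembly and rRNA maturation, had log2FC of 1.87, 1.84, 1.69 and 1.49, and NCL, nucleolin, had 0.49. The 1 member that fell, PES1, shares its locus with SEC14L3, and the 2 cannot be separated. Leaving out 1 sample at a time gave 43 to 57 rising loci.

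Of 18 aminoacyl-tRNA synthetase loci, 12 rose and 0 fell, with a median log2FC of 0.66. AARS1, which charges alanine tRNA, had 223, 176 and 248 CPM in HT3 and 778, 523 and 844 CPM in HT7 (log2FC 1.73 ± 0.28, adjusted p = 0.00025), while KARS1, which charges lysine tRNA, had 438, 385 and 382 CPM in HT3 and 524, 390 and 433 CPM in HT7 (log2FC 0.16, adjusted p = 0.26). Of 32 loci of the ATF4 list, 15 rose and 3 fell (46.9% and 9.4%, against 13.4% and 15.7% of all loci), with a median log2FC of 0.75. The number that fell was 1 without HT7 replicate 3 and 4 without HT3 replicate 3. SESN2, an inhibitor of mTORC1, had a log2FC of 2.40, CTH, which makes cysteine, 2.11, and ASNS, asparagine synthetase, 1.36. DDIT3, the proapoptotic factor CHOP, fell by 1.86. Of 32 heat shock and endoplasmic reticulum chaperone loci, 14 rose and 0 fell by edgeR, and 16 rose and 1 fell by DESeq2, with a median log2FC of 0.52. HSP90AA1, the inducible HSP90, changed from 713, 603 and 757 CPM to 1204, 1112 and 1182 CPM (log2FC 0.75 ± 0.12, adjusted p = 0.00027).

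NRF2 targets changed in both directions. Of 40 loci, 14 rose and 3 fell (35% and 7.5%, against 13.4% and 15.7% of all loci). The median log2FC was 0.52, and 2 were upregulated DEGs (5 without HT7 replicate 2). SRXN1, sulfiredoxin, which reactivates oxidized peroxiredoxins, had 13.4, 30.1 and 20.1 CPM in HT3 and 158, 71.3 and 246 CPM in HT7 (log2FC 2.90 ± 0.47, adjusted p = 0.00024). TXNRD1, thioredoxin reductase, HMOX1, heme oxygenase, and GCLM, a subunit of the enzyme that starts glutathione synthesis, had log2FC of 1.78, 1.79 and 1.59. PIR shares its locus with VEGFD, and this locus fell by 2.05 on the log2 scale. In glycolysis and hypoxia targets, 10 of 34 loci rose and 5 fell (29.4% and 14.7%), the latter close to the share of all loci that fell. PFKP, the platelet phosphofructokinase, had a log2FC of 2.03 and LDHA, lactate dehydrogenase, one of 1.50, while VEGFA, also in this list, was downregulated. Of 24 loci of cholesterol and fatty acid synthesis, 2 rose and 1 fell (8.33% and 4.17%). The number that rose was 5 without HT3 replicate 3 and 0 without HT3 replicate 1, HT3 replicate 2 or HT7 replicate 1.

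Immediate early genes had the highest median log2FC of the lists examined, 1.58, apart from the genes the study modeled. Of 19 loci, 11 rose and 0 fell, and 6 were DEGs. FOSL1, an AP-1 subunit, had 1.58, 2.09 and 2.52 CPM in HT3 and 37.8, 15.4 and 36.1 CPM in HT7 (log2FC 3.85 ± 0.46, adjusted p = 2.7e-05). EGR3 and NR4A3, transcription factors induced within minutes of stimulation, had log2FC of 4.24 ± 0.73 and 3.996 ± 0.74. The number that rose was 7 without HT3 replicate 2 and 7 without HT7 replicate 1.

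Of 28 cytokine and chemokine loci, 4 rose and 1 fell (14.3% and 3.57%), shares close to or under the 13.4% and 15.7% of all loci, and the median log2FC was 0.60 in hyperoxia and 0.56 in normoxia. The DEGs were LIF and CSF3, described above, and CCL7, a monocyte chemokine, with 40.7, 11.4 and 33.2 CPM in HT3 and 125, 114 and 128 CPM in HT7 (log2FC 2.11 ± 0.49, adjusted p = 0.0032). CCL2, a related chemokine, had 18.7, 9.21 and 137 CPM in HT3 and 148, 178 and 270 CPM in HT7 (log2FC 1.86 ± 0.997, adjusted p = 0.14). HT3 replicate 3 already held a high level of CCL2, and leaving out 1 sample at a time gave CCL2 log2FC from 1.36 to 3.84. CCL7 was no longer a DEG without HT3 replicate 2 or HT7 replicate 3. Of 31 inflammatory enzymes and regulators, 9 rose and 1 fell (29.0% and 3.23%), with a median log2FC of 0.69. PTX3, a soluble pattern recognition protein, had 23.3, 32.1 and 38.2 CPM in HT3 and 1008, 66.6 and 422 CPM in HT7 (log2FC 3.998 ± 0.64, adjusted p = 0.00024), and TNFAIP6, a hyaluronan-binding inhibitor of inflammation, had a log2FC of 3.51. NOS2, the inducible nitric oxide synthase, fell from 35.1, 36.3 and 37.1 CPM to 1.83, 6.53 and 6.48 CPM (log2FC -2.87 ± 0.47, adjusted p = 0.00027). Of 27 interferon response loci, 1 rose and 4 fell (3.70% and 14.8%), the latter close to the share of all loci that fell. The one that rose is shared by ISG20 and AEN, a p53 target.

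Plasminogen and coagulation genes held few but large changes. Of 18 loci, 5 rose and 1 fell (27.8% and 5.56%, against 13.4% and 15.7% of all loci), each of them a DEG. THBS1, thrombospondin 1, an inhibitor of angiogenesis, had 366, 388 and 794 CPM in HT3 and 4532, 2668 and 3532 CPM in HT7 (log2FC 2.79 ± 0.34, adjusted p = 3e-05). F3, tissue factor, which starts coagulation, had 218, 212 and 265 CPM in HT3 and 1290, 864 and 804 CPM in HT7 (log2FC 2.09 ± 0.26, adjusted p = 4.4e-05). PROS1, the anticoagulant protein S, fell from 105, 119 and 77.2 CPM to 20.5, 28.3 and 17.2 CPM (log2FC -2.20 ± 0.28, adjusted p = 4.7e-05). Without HT7 replicate 2, 8 of the 18 loci rose, and without HT7 replicate 1, 4 rose, of which 2 were DEGs.

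Genes of the transitional epithelium, seen when type 2 cells repair the alveolus, rose in 12 of 21 loci and fell in 2, with a median log2FC of 1.36 against -0.02 in normoxia. CLDN4, a tight junction claudin, had 9.85, 8.65 and 9.75 CPM in HT3 and 59.3, 22.6 and 49.1 CPM in HT7 (log2FC 2.21 ± 0.35, adjusted p = 0.0002). KRT5, a keratin of basal cells, had 1.90, 0.798 and 1.55 CPM in HT3 and 9.33, 6.33 and 5.81 CPM in HT7 (log2FC 2.33 ± 0.38, adjusted p = 0.00028). PLAUR, the urokinase receptor, and EREG, a ligand of the epidermal growth factor receptor, had log2FC of 2.18 and 3.90, and KRT7, KRT18 and LGALS3, expressed in stressed epithelium, had 1.56, 1.28 and 1.71. Without HT7 replicate 1 the log2FC of PLAUR was 1.33, and PLAUR was no longer a DEG there, in the fit of the 6 samples alone or by limma-voom. Several of these genes are also expressed by other lung cells.

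**Figure D3:**
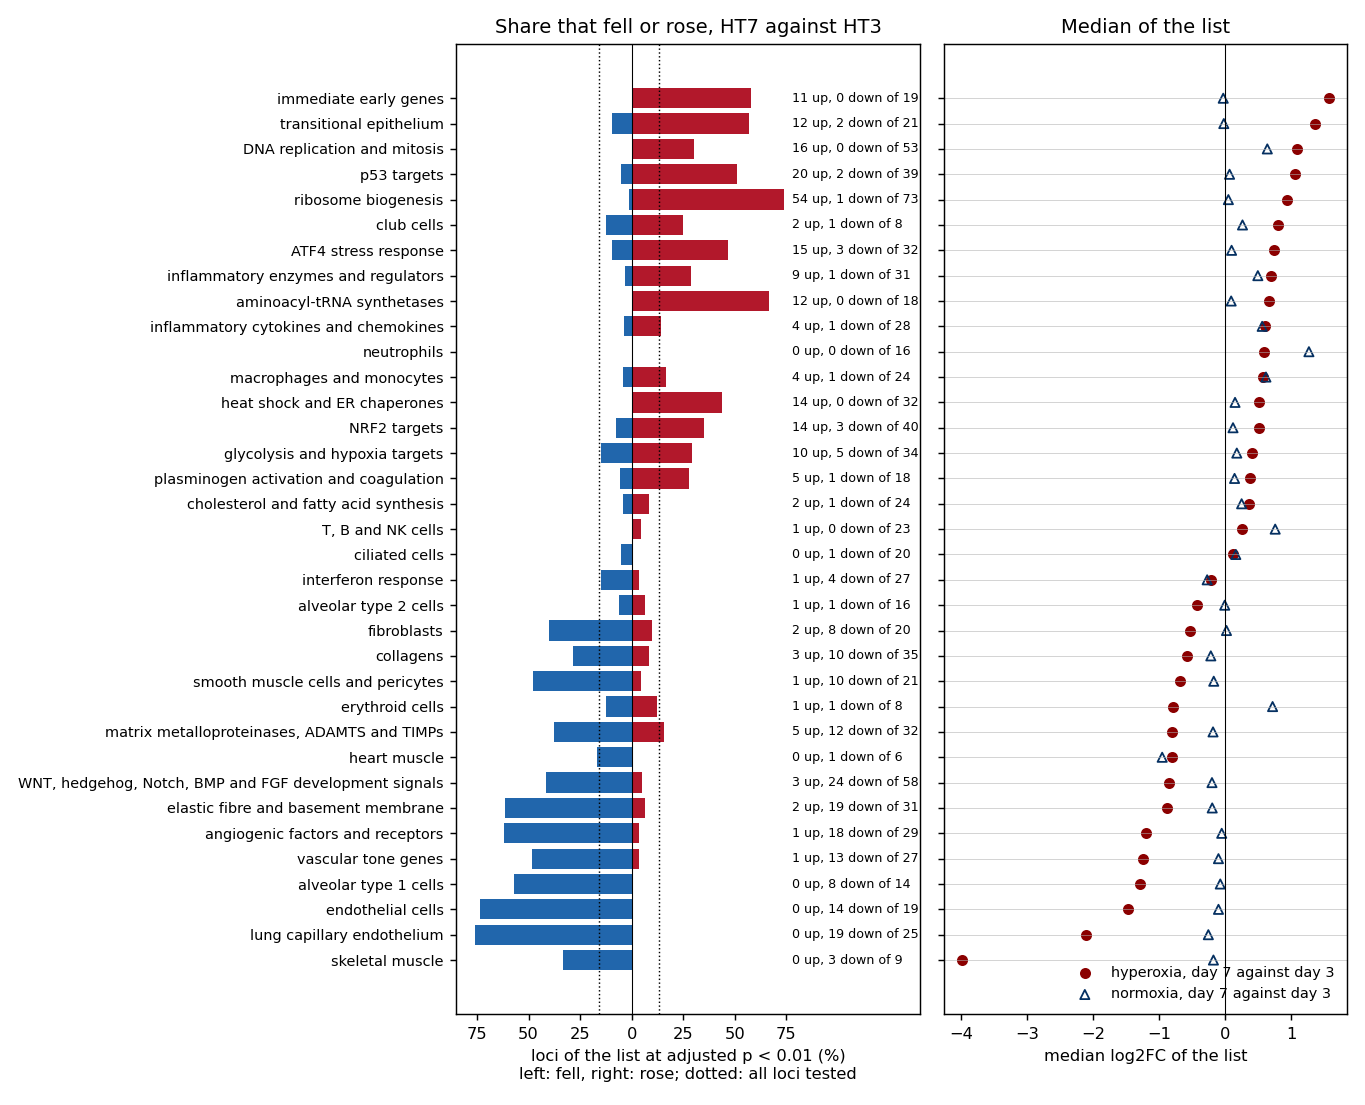
Share of each gene list that fell (left, blue) or rose (right, red) from HT3 to HT7 at an adjusted p-value under 0.01, with the counts, and the median log2FC of each list in hyperoxia (circles) and normoxia (triangles). Dotted lines mark the 15.7% of all loci that fell and the 13.4% that rose. Among the lists drawn, lung capillary endothelium has the lowest median after skeletal muscle, and immediate early genes have the highest.

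Capillary endothelial genes fell most among the lung cell types examined. Of 25 loci, 19 fell and 0 rose, 12 were downregulated DEGs, and the median log2FC was -2.10 in hyperoxia and -0.25 in normoxia. With the member at the floor set to its bound, the median was -1.98. The summed level of the list was 6905, 7927 and 5625 CPM in HT3, 2920 and 1958 CPM in HT5 and 1213, 1693 and 1151 CPM in HT7. It was between 6264 and 9032 CPM in the 9 normoxia samples. PRX, periaxin, a scaffold protein, had 407, 387 and 272 CPM in HT3 and 32.7, 54.8 and 24.3 CPM in HT7 (log2FC -3.25 ± 0.29, adjusted p = 5.7e-06). KDR, the main receptor of VEGFA, had 459, 548 and 383 CPM in HT3 and 64.6, 119 and 74.4 CPM in HT7 (log2FC -2.43 ± 0.27, adjusted p = 1.6e-05). APLNR, the apelin receptor, fell by 2.87 on the log2 scale. Of 19 loci of endothelium in general, 14 fell and 0 rose, with a median log2FC of -1.47. Their summed level was 6498 to 7874 CPM in HT3 and 2685 to 2872 CPM in HT7, so that the groups did not overlap.

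Of 29 loci of angiogenic ligands and receptors, 18 fell and 1 rose, and 8 were downregulated DEGs. This list shares members with others, so their counts are not separate results. KDR is also in both endothelial lists, TEK in the general endothelial list and VEGFA among the type 1 genes. Among the ligands, VEGFA, the main vascular growth factor (chromosome 12, 33200062 to 33213632), had 1413, 1292 and 1082 CPM in HT3 and 303, 368 and 260 CPM in HT7 (log2FC -2.02 ± 0.22, adjusted p = 1.6e-05). ANGPT1, the stabilizing ligand of TEK, had 190, 156 and 153 CPM in HT3 and 27.1, 53.2 and 29.3 CPM in HT7 (log2FC -2.19 ± 0.24, adjusted p = 1.6e-05). Among the receptors, TEK (chromosome 1, 26309584 to 26438157) had 498, 400 and 481 CPM in HT3 and 53, 92 and 56.8 CPM in HT7 (log2FC -2.77 ± 0.22, adjusted p = 3.3e-06). The spread within each group was small beside these differences. The 1 member that rose was ANGPT2, a ligand that can antagonize ANGPT1 at TEK, with a log2FC of 1.32. FGF1, an acidic fibroblast growth factor, fell by 1.98, just short of the DEG threshold. Leaving out any 1 of the 6 samples left 18 falling and 1 rising loci, while the number of downregulated DEGs went from 5 (without HT7 replicate 3) to 9. VEGFA was no longer a DEG without HT3 replicate 1 or HT7 replicate 3. The count of VEGFD is shared with PIR and its fall cannot be given to either gene.

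Genes of vascular tone fell in 13 of 27 loci and rose in 1, with a median log2FC of -1.24. ACE, the angiotensin-converting enzyme of capillary endothelium, had 1718, 2040 and 1417 CPM in HT3, 611 and 173 CPM in HT5 and 75.7, 246 and 117 CPM in HT7 (log2FC -3.56 ± 0.44, adjusted p = 3.7e-05). NPR1 and NPR3, receptors of natriuretic peptides, fell by 2.43 and 2.14, and CALCRL, the receptor of adrenomedullin, fell by 2.29. EDNRB, the endothelin receptor B, fell by 2.38, and GUCY1A1 and GUCY1B1, the subunits of soluble guanylate cyclase, fell by 1.34 and 1.53. The 1 member that rose was BDKRB1, the inducible bradykinin receptor, from 0.0657, 0.123 and 0.323 CPM to 9.27, 3.13 and 12 CPM (log2FC 5.52).

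Alveolar type 1 genes fell in 8 of 14 loci and rose in 0, with a median log2FC of -1.29. EMP2, a tetraspan membrane protein, had 1386, 1611 and 1072 CPM in HT3 and 153, 198 and 134 CPM in HT7 (log2FC -3.07 ± 0.30, adjusted p = 8.3e-06). RTKN2, a rhotekin, had 81.8, 114 and 54.2 CPM in HT3 and 4.41, 18.4 and 6.87 CPM in HT7 (log2FC -3.08 ± 0.50, adjusted p = 0.00025). The locus of AGER, the defining receptor of type 1 cells, is shared with PBX2 and fell by 1.97. The summed level of the list was 10510 to 13150 CPM in HT3 and 4764 to 5909 CPM in HT7, with 11120 to 14720 CPM in normoxia.

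Type 2 markers varied widely within HT7. Of 16 loci, 1 rose and 1 fell. The summed level was 29300, 32880 and 29450 CPM in HT3 and 15850, 34470 and 18940 CPM in HT7, and HT7 replicate 2 held the highest of these. SFTPC had 11049, 10588 and 9301 CPM in HT3 and 4767, 13213 and 5701 CPM in HT7 (log2FC -0.39 ± 0.39, adjusted p = 0.44). DLK1, a noncanonical Notch ligand, was the member that fell, by 2.44. Without HT7 replicate 2, 6 of the 16 loci fell and 1 rose. Of 8 club cell loci, MUC5B, a gel-forming mucin, and SCGB3A2 rose, and CYP4B1 fell by 1.79. MUC5B was not called in 5 of the 6 fits that left out 1 sample. Of 20 ciliated cell loci, 1 fell and 0 rose, and it is shared by TPPP3 and ZDHHC1.

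**Figure D4:**
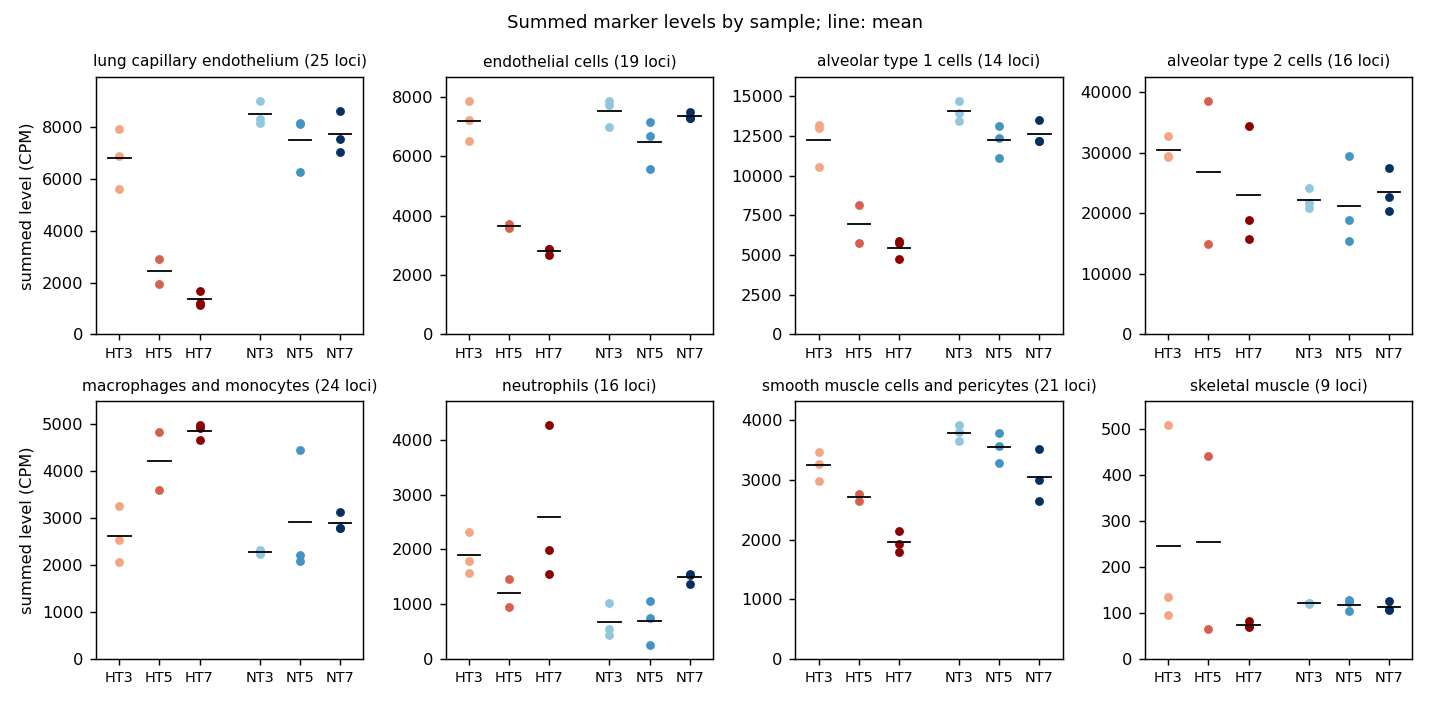
Summed level of 8 marker lists (CPM) in each sample of the 6 groups, with the mean of each group as a line. Capillary endothelium, endothelium, type 1 and smooth muscle sums are lower in every HT7 sample than in any HT3 sample, while type 2 sums overlap and the skeletal muscle sum is high in 1 HT3 and 1 HT5 sample.

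Of 32 metalloproteinases, ADAMTS proteases and TIMPs, 5 rose and 12 fell (15.6% and 37.5%, against 13.4% and 15.7% of all loci), with a median log2FC of -0.80. Beside MMP10 and ADAMTS4, the members that rose were MMP13, an interstitial collagenase, TIMP1, an inhibitor of metalloproteinases, and ADAMTS14, with log2FC of 5.02, 2.67 and 0.59. ADAMTS17, MMP16 and MMP11 fell by 2.19, 2.22 and 2.19. Of 35 collagens, 3 rose and 10 fell (8.57% and 28.6%). COL4A3, an alpha chain of mature basement membrane collagen, had 712, 862 and 644 CPM in HT3 and 107, 178 and 165 CPM in HT7 (log2FC -2.30 ± 0.22, adjusted p = 8.3e-06), and COL4A4, which assembles with it, fell by 2.30 as well. COL5A3, a fibrillar collagen, rose from 11.1, 12 and 6.39 CPM to 34.4, 40.0 and 92.4 CPM (log2FC 2.50 ± 0.35, adjusted p = 8.4e-05).

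Elastic fiber and basement membrane genes fell in 19 of 31 loci and rose in 2. NPNT, nephronectin, a ligand of integrin alpha 8, had 1322, 1254 and 941 CPM in HT3 and 84.7, 263 and 105 CPM in HT7 (log2FC -2.96 ± 0.36, adjusted p = 3.1e-05), and ITGA8, this integrin subunit, fell by 2.41. LAMA2, a laminin chain, fell by 2.19, FBLN2, fibulin 2, by 2.08, ELN, elastin, by 1.04 and LOX, which crosslinks elastin and collagen, by 1.11. FBLN1, fibulin 1, was one of the members that rose, with a log2FC of 1.94. LAMA2 was no longer a DEG without HT3 replicate 2, HT7 replicate 1 or HT7 replicate 3.

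Developmental signals fell in 24 of 58 loci and rose in 3, with a median log2FC of -0.85. The hedgehog targets GLI1 and PTCH1 fell by 1.99 and 1.51, the WNT target AXIN2 by 1.80, and the Notch targets HEY1 and HEYL by 1.98 and 1.94. The members that rose were FGF7, a mitogen of epithelium, CHRD, a BMP antagonist, and SFRP1, a WNT antagonist. FGF7 had 9.26, 9.82 and 8.39 CPM in HT3 and 44.3, 35.8 and 61.4 CPM in HT7 (log2FC 2.36 ± 0.31, adjusted p = 5.5e-05). CHRD had a log2FC of 2.32 ± 0.26.

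Among mesenchymal markers, 8 of 20 fibroblast loci fell and 2 rose, and 10 of 21 smooth muscle and pericyte loci fell and 1 rose. COX4I2, a cytochrome oxidase subunit of pericytes, had the smallest adjusted p-value of the genes described, with 50.4, 44.4 and 46.5 CPM in HT3 and 8.20, 9.53 and 7.37 CPM in HT7 (log2FC -2.50 ± 0.14, adjusted p = 1.9e-07). TRPC6, a cation channel gene of vascular smooth muscle, fell by 2.23 and LIMCH1, which activates nonmuscle myosin, by 2.17. PLIN2, which coats lipid droplets, rose from 63.4, 50.5 and 80.1 CPM to 324, 223 and 357 CPM (log2FC 2.22 ± 0.26, adjusted p = 2.2e-05).

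Few leukocyte markers passed the test. Of 24 macrophage and monocyte loci, 4 rose and 1 fell (16.7% and 4.17%, against 13.4% and 15.7% of all loci), with a median log2FC of 0.57 in hyperoxia and 0.62 in normoxia. CD163, a scavenger receptor, had 3.15, 7.55 and 10.8 CPM in HT3 and 35.4, 49.7 and 17.5 CPM in HT7 (log2FC 2.25 ± 0.53, adjusted p = 0.0032). CD163 was no longer a DEG without HT3 replicate 1, HT3 replicate 2 or HT7 replicate 2, nor in the fits of the 6 samples of HT3 and HT7 or of the 8 hyperoxia samples alone. The summed level of the 24 loci was 2531, 2072 and 3261 CPM in HT3 and 4925, 4987 and 4660 CPM in HT7, so that the groups did not overlap. The locus of CD68 held the most of this sum, but it also holds EIF4A1 and cannot be read as a macrophage marker. It had 900, 712 and 946 CPM in HT3 and 2186, 1298 and 1760 CPM in HT7. Of 16 neutrophil loci, 0 rose and 0 fell by edgeR, with 2 higher and 1 lower at an unadjusted p-value under 0.05, and 1 rose by DESeq2. In this list the median log2FC was 0.59 against 1.27 in normoxia. Their summed level was 1794, 2310 and 1576 CPM in HT3 and 4276, 1545 and 1980 CPM in HT7, and HT7 replicate 1 alone lay above all HT3 samples. Of 23 T, B and NK cell loci, 1 rose. It was CD8B, with 0.722, 0.246 and 0.516 CPM in HT3 and 4.54, 4.40 and 6.65 CPM in HT7 (log2FC 3.38 ± 0.35, adjusted p = 1.2e-05). TFRC, the transferrin receptor, listed among erythroid genes though dividing and iron-starved cells express it, rose by a log2FC of 1.75 ± 0.22, and ALAS2, the enzyme that starts heme synthesis in erythroid cells, fell by 1.71.

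On day 5 the mean level of most DEGs was intermediate. The HT5 mean lay between the HT3 and HT7 means in 156 of 173 upregulated and 260 of 279 downregulated DEGs, and beyond the HT7 mean in 13 and 17. Since HT3 and HT7 means are also part of the comparison that chose these genes, this is a description. The median log2FC of HT5 against HT3 was 1.76 in upregulated and -1.59 in downregulated DEGs. It had already covered most of the log2FC of HT7 against HT3 in 123 upregulated and 192 downregulated DEGs. The samples of HT5 differed from each other, and replicate 2 lay further towards HT7 in 119 upregulated and 237 downregulated DEGs. CDKN1A, for example, stood at 739 and 1689 CPM in HT5.

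In normoxia, 0 loci rose (0%) and 0 fell (0%) from day 3 to day 7 at an adjusted p-value under 0.01 by edgeR, although 802 had an unadjusted p-value under 0.05. The same was found by DESeq2, which called 0 and gave 893 loci such a p-value. The 173 upregulated DEGs of hyperoxia had a median log2FC of 0.24 in normoxia, and the 279 downregulated DEGs one of -0.21. The normoxia change was beyond 1 on the log2 scale in 35 and 17 of them, among them CA12 (3.75) and CSF3 (3.04). A gene called in one arm only is not shown to differ between arms, so the difference was tested. The change in hyperoxia exceeded that in normoxia with a log2FC above 2 in 58 loci (0.459%) and lay below it with a log2FC under -2 in 133 (1.05%). With no minimum on the difference these were 292 (2.31%) and 593 (4.7%). Of the DEGs, 47 upregulated and 114 downregulated ones passed this test in the same direction.

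The number of loci whose change differed between the arms depended on single samples. It was 191 with all samples, 396 without HT7 replicate 2, 101 without HT7 replicate 3, 111 without HT7 replicate 1 and 124 without HT3 replicate 2. It was 123, 103 and 108 without NT3 replicates 1, 2 and 3, and 103 without NT7 replicate 2. CD300LG had 109, 79.1 and 94.7 CPM in NT3 and 80.6, 130 and 115 CPM in NT7, and its difference of changes was -5.59 ± 0.52 (adjusted p = 0.0001). TEK stood at 468, 437 and 505 CPM in NT3 and 485, 473 and 447 CPM in NT7 (difference -2.77 ± 0.29, adjusted p = 0.00023). CDKN1A stood at 18.2, 25.1 and 25.5 CPM in NT3 and 26.6, 29.0 and 39.8 CPM in NT7 (difference 2.96 ± 0.46, adjusted p = 0.0014). By lists, the difference was lower in hyperoxia at an adjusted p-value under 0.01 in 16 of 29 angiogenic loci, 14 of 25 capillary and 11 of 19 endothelial loci. Of all loci, 4.7% had a lower difference. These lists share members such as KDR, so their counts are not separate results. The difference was higher in hyperoxia in 12 of 39 p53 targets and 19 of 73 ribosome biogenesis loci, against 2.31% of all loci. For replication and mitosis it was 0 of 53 loci, which is close to that share. DESeq2 gave 18 p53 targets and 35 ribosome biogenesis loci.

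**Figure D5:**
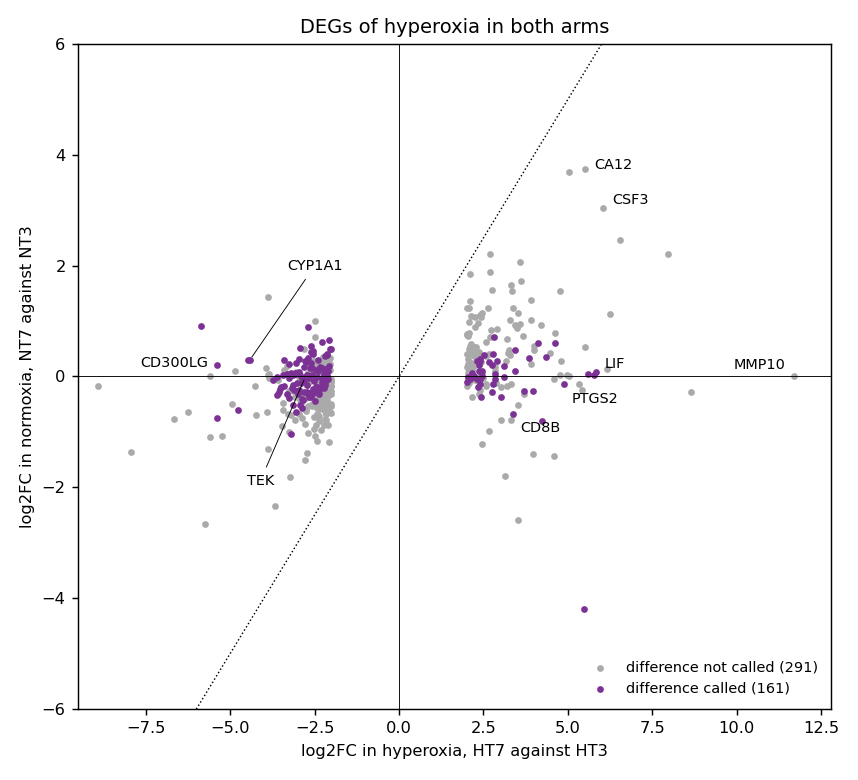
Log2FC from day 3 to day 7 in hyperoxia (x axis) and normoxia (y axis) of the 452 DEGs of hyperoxia, in purple where the difference between the arms was called with a log2FC beyond 2 (161) and in gray where it was not (291). The dotted line marks equal change, and most DEGs lie near 0 on the y axis.

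Several other DEGs named above with a log2FC near 2 were no longer DEGs when 1 sample was left out. Without HT7 replicate 1 these were CLDN4, F3, FBLN2, LIMCH1, MMP11, MMP16, PFKP, DLK1 and the locus of ISG20 and AEN. Without HT7 replicate 3 they were COL5A3, CTH, LIMCH1, MDM2 (its main locus), MMP11, DLK1 and the locus of PIR and VEGFD. Without HT3 replicate 2 they were CTH, FBLN2, MDM2, MMP16 and PFKP, and without HT3 replicate 1 DLK1 and the locus of PIR and VEGFD. Counts of lists moved with single samples as well. The number that fell was 2 to 5 in interferon response genes and 2 to 5 in glycolysis and hypoxia targets, and the number that rose was 2 to 5 in macrophage and monocyte markers. It was 0 to 2 among club cell genes and 1 to 3 among genes of vascular tone.

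The study modeled 13 genes over time. They were chosen on these samples and their direction is no independent evidence. Of their 14 loci, 6 rose, 5 fell and 10 were DEGs. Beside those described above, COL23A1, a transmembrane collagen, had 112, 102 and 55.3 CPM in HT3 and 13.8, 21.2 and 9.78 CPM in HT7 (log2FC -2.60 ± 0.33, adjusted p = 4.5e-05), and MMP11, stromelysin 3, had 45.3, 54.6 and 57.1 CPM in HT3 and 7.32, 19.6 and 7.71 CPM in HT7 (log2FC -2.19 ± 0.42, adjusted p = 0.00085). MDM2 had 225, 178 and 223 CPM in HT3 and 843, 694 and 1144 CPM in HT7 at its main locus. IL1R2, the decoy receptor of interleukin 1, had 40.8, 83.7 and 33.8 CPM in HT3 and 213, 74.4 and 111 CPM in HT7, and its groups overlapped (log2FC 1.33 ± 0.53, adjusted p = 0.055).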

How the data were processed

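RNA-seq of right lung homogenates was mapped by the authors with STAR 2.7.10a to OryCun2.0, per the labels, which also name FastQC. The counting program is not given in the sources used here. The authors deposited raw counts per locus without normalization. Loci with several annotated genes (434, in 948 entries of the table) repeat the same counts and were used once, and 2625 entries carry the symbol of a human homolog. Whether the counting used strand is not stated.

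Counts were analyzed with edgeR 4.0.16 in R 4.3.3 (filterByExpr, TMM, 6 group means, all 17 samples, prior count 0.125, biological coefficient of variation 21.5%). The test of the difference was (HT7 - HT3) - (NT7 - NT3). Benjamini-Hochberg adjustment ran over the 12628 loci tested. Errors are standard errors of the log2FC, and CPM use TMM factors (0.951 to 1.05). On simulated data, 100% of 100 genes changed by a log2FC of 3 and of 100 changed by 4 were recovered, with 0 other calls among 12557 loci. Alternatives covered the test (DESeq2 1.42.0, limma 3.58.1), normalization, filter, prior count, samples in the fit, replicate block and leaving out each sample. Figures used matplotlib 3.10.9.

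Genes named are the 15 largest rises and falls among DEGs with a symbol, an average of at least 1 log2 CPM and no overlap between groups, per list up to 4 DEGs with the smallest adjusted p-value (filled up to 2 by level), and the 13 genes the study modeled. Some genes under this rule are not reported here. Other genes, given with a log2FC only, and BDKRB1 were chosen after their values were seen. The comparison and the gene lists were chosen with earlier results of these data known, and no test on a list as a whole was made. The limma fit and the leaving out of samples for the lists were added after seeing the data. Deviations from the group means of samples with the same replicate number correlated at 0.177, 0.141 and 0.27 between NT3 and NT7, all above 0.1, and the pairing comes from these values alone. Between HT3 and HT7 they did not pass 0.1. Replicates of a group differed far beyond sampling noise (chi-square per degree of freedom from 15.4 to 84.4).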

Additional observations from a re-analysis of the deposited data

Results flagged for a closer look

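Among the named genes, 44 loci changed differently from day 3 to day 7 in hyperoxia than in normoxia, by the test of the difference itself (edgeR, adjusted p-value under 0.01 and a log2 difference beyond 2). In 20 the difference, given in parentheses as hyperoxia minus normoxia on the log2 scale, was above 0, and in 24 it was below. Adjusted p-values were between 0.000104 and 0.0086. HT3 and HT7 are the samples by which most of these genes were named, and only the normoxia samples add to what the report gives.

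Above 0 were genes of signaling, coagulation and matrix, namely LIF (5.75), ADAMTS4 (5.75), IL1RL2 (5.55), PTGS2 (5.02), THBS1 (2.93), F3 (2.14), COL5A3 (2.11) and CHRD (2.36). The p53 targets were CDKN1A (2.96), GADD45A (2.92), EDA2R (2.79), PHLDA3 (2.09) and SESN2 (2.08) and the locus of ISG20 and AEN (2.08). The transcription factors were EGR3 (5.04) and FOSL1 (3.51). Others were CD8B (4.06), STEAP2 (4.01), KRT5 (2.53) and CLDN4 (2.23). CD8B, the beta chain of a T cell coreceptor, stood at 0.126 to 0.186 CPM in NT3 and 0.0741 to 0.138 CPM in NT7, and no other T cell gene of the list rose.

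Below 0 were endothelial and vascular genes, namely CD300LG (-5.59), ACE (-3.29), PRX (-2.87), APLNR (-2.84), TEK (-2.77), ANGPT1 (-2.56), CALCRL (-2.44), NPR1 (-2.41), NPR3 (-2.52), FGF1 (-2.04) and PROS1 (-2.34). Epithelial and mesenchymal genes were EMP2 (-2.42), CYP4B1 (-2.42), NPNT (-3.27), ITGA8 (-2.50), LIMCH1 (-2.19), LAMA2 (-2.23), COL23A1 (-2.84) and COX4I2 (-2.06). Others were CYP1A1 (-4.72), KCNH6 (-4.17), LUZP2 (-3.66), ERBB4 (-3.61) and CNTN6 (-3.29). The difference of CYP4B1 joins a fall of 1.79 in hyperoxia to a change of 0.64 in normoxia, where it did not pass the test.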

How the results depend on the processing

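The number of DEGs between HT3 and HT7 (452) was 504 by DESeq2, of which 444 were shared, 440 by limma-voom, 409 with a prior count of 2, 350 with only the 6 samples of HT3 and HT7 in the fit and 327 with only the 8 hyperoxia samples. With no minimum on the fold change it was 3674. Leaving out 1 sample gave 344 to 654. For the difference between the arms (191), DESeq2 gave 294, no minimum on the fold change 885, and leaving out 1 sample 101 to 396. In normoxia every alternative run, with leaving out 1 sample (0 to 0), gave 0. The cause was not tested. With the replicate block these numbers were 436, 168 and 0. In hyperoxia the same replicate number correlated at 0.0334, 0.0446 and 0.0962, and crossed numbers at -0.0543 to 0.00404, so that each sample correlated best with its own number, a hint from the data and not from the design.

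By list, DESeq2 gave 27 rising loci of DNA replication and mitosis in place of 16, 5 of lipid synthesis in place of 2, and 3 of vascular tone in place of 1. Of the 122 loci of the named genes, 98 were DEGs, and 60 of these stayed DEGs in every alternative run. Of 1828 values compared, 1709 stayed on their side of the threshold and 0 reversed. Calls were lost most often without HT7 replicate 1 (18 loci), HT7 replicate 3 (17) and HT3 replicate 2 (16). CCL2, with a wide spread within HT3, was not called by edgeR (adjusted p = 0.144) and passed the threshold by limma-voom (adjusted p = 0.00896).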

Other observations

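Some gene families outside the lists above were looked at after their values were seen, by symbol, and are given as counts with no test of the family, beside the 13.4% of all loci that rose and the 15.7% that fell. Of 54 potassium channel loci, 14 fell and 3 rose from HT3 to HT7, with a median log2FC of -0.51 against -0.03 in normoxia. KCNK3, a background potassium channel of pulmonary artery smooth muscle, had 34.1 ± 7.05 CPM (SD, n = 3) in HT3 and 5.45 ± 3.29 CPM in HT7. KCNH2, a relative of KCNH6, had 26.5 ± 2.22 CPM in HT3 and 6.84 ± 2.26 CPM in HT7. Of 11 SLC6 transporter loci, 4 fell and 1 rose. SLC6A4, the serotonin transporter, which lung endothelium uses to clear serotonin from blood, had 220 ± 33.3 CPM in HT3 and 26.2 ± 10.8 CPM in HT7 (log2FC -3.07 ± 0.31 SE, edgeR adjusted p = 1e-05). SLC6A2, the noradrenaline transporter, had 108 ± 30.3 CPM in HT3 and 15.5 ± 16.5 CPM in HT7. Of 17 ephrin and Eph receptor loci, 7 fell and 1 rose. EFNB2, the ephrin of arterial endothelium, had 106 ± 29.8 CPM in HT3 and 24.2 ± 5.03 CPM in HT7.

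Of 11 histone loci, 7 rose and 1 fell, with a median log2FC of 1.77 against 0.17 in normoxia. Replication-dependent histone transcripts carry no poly(A) tail, and the libraries were made from poly(A) RNA. H1-4, a linker histone, had 8.52 ± 1.58 CPM in HT3 and 61.3 ± 35.5 CPM in HT7. Of 33 loci named for small nucleolar RNAs, 11 rose and 1 fell. These names cover loci whose reads may come from host transcripts, and the locus named for SNORA9 had 8.22 ± 1.60 CPM in HT3 and 45.2 ± 18.7 CPM in HT7. Of 13 keratin loci, 6 rose and 1 fell.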
